A study of Mus musculus with 3 samples.

Results

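The caveolins Cav1 and Cav2 and the flotillins Flot1 and Flot2, which encode scaffold proteins of cholesterol-rich membrane domains, were followed through osteoclast formation in mouse bone marrow cultures. These 4 genes, of 12393 on the array, were taken by symbol from the deposited value table and were chosen by the 24 h and 0 h signals of Cav1, which increased early, so its 24 h value is a description and supports nothing else. Bone marrow cells of the C57/BL6 strain were first cultured with 50 ng/ml human M-CSF, the cytokine that yields macrophages, for 3 days and then received human RANKL at 150 ng/ml, the cytokine that turns these precursors into bone-resorbing osteoclasts. The labels call the culture at 0 h of RANKL a precursor, the culture at 24 h a differentiating precursor and the culture at 72 h an osteoclast. Each time is 1 array, so there is no replicate check, no test and no p-value, and a culture kept without RANKL for the same time was not analysed here, so RANKL and time in culture cannot be told apart. The labels do not say how many mice gave the marrow. The arrays measure bulk RNA, in which a change in the share of cells that express a gene and a change in its RNA per cell cannot be told apart.

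Caveolins are small membrane proteins that oligomerise into the coat of caveolae, flask-shaped pits of the plasma membrane that also need the cavin proteins. Cav1 forms this coat outside skeletal and heart muscle, and Cav2 joins Cav1 in it. Both are best known from endothelial cells, adipocytes, fibroblasts and smooth muscle. Flotillins, also named reggies, belong to the SPFH domain family and form flat membrane domains without caveolae, in which they take part in endocytosis and in signalling by Src family kinases.

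The 3 arrays differed in brightness as deposited, with a median signal over gene probe sets of 36.7 at 0 h, 60.9 at 24 h and 62.7 at 72 h. Relative to 0 h the log2 values were shifted by 0.73 at 24 h and 0.77 at 72 h. Signals below are scaled to the same array median unless called deposited, values under a floor of 29.6 units were set to it, and a gene is called higher or lower when the difference reaches 2-fold. The error at hand is technical. It is the SD between probe sets of the same gene, with a log2 value of 0.41 in the 24 h minus 0 h comparison, 0.49 in 72 h minus 0 h and 0.36 in 72 h minus 24 h. Osteoclast markers went with the labels. Of 8 such genes, 5 of 7 measured were higher at 24 h and 8 of 8 at 72 h than at 0 h. Over all measured genes 13.2% were higher at 24 h and 12.5% at 72 h. The higher markers included the collagen-degrading protease Ctsk with signals of 175, 910 and 8856 at 0, 24 and 72 h. Of 8 macrophage markers 6 were lower at both later times, including the mannose receptor Mrc1 with 3911, 183 and 109. Over all measured genes 9.22% were lower at 24 h and 12.8% at 72 h. The remaining markers were Csf1r, within 2-fold at both times (7485, 5786 and 6383), and Cd68, 2.34-fold higher at 72 h (2868, 2438 and 6699).

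Within the first day the caveolins and the flotillins went opposite ways. Cav1 and Cav2 were called higher at 24 h and Flot1 and Flot2 lower. The Flot2 call was just past 2-fold, rests on 1 of 2 probe sets and was lost on the deposited scale. The Cav2 call rests on the brighter of 2 probe sets. The Cav1 call was fixed by the choice of genes, and of the other 3 members 1 was higher and 2 lower, where 13.2% of the 8439 measured genes were called higher and 9.22% lower. At 72 h against 0 h Cav1 and Cav2 were still higher and Flot1 lower, against 12.5% and 12.8% of 8558 measured genes, and Flot2 was within 2-fold. From 24 to 72 h 1 of the 4, Cav1, was called, as lower. In that comparison 10.0% of 8391 measured genes were lower. Both of these Cav1 calls hold a signal that the choice used and are a description. Of the other 3 members 1 was higher and 1 lower at 72 h against 0 h, and 0 were higher and 0 lower from 24 to 72 h.

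**Figure D1:**
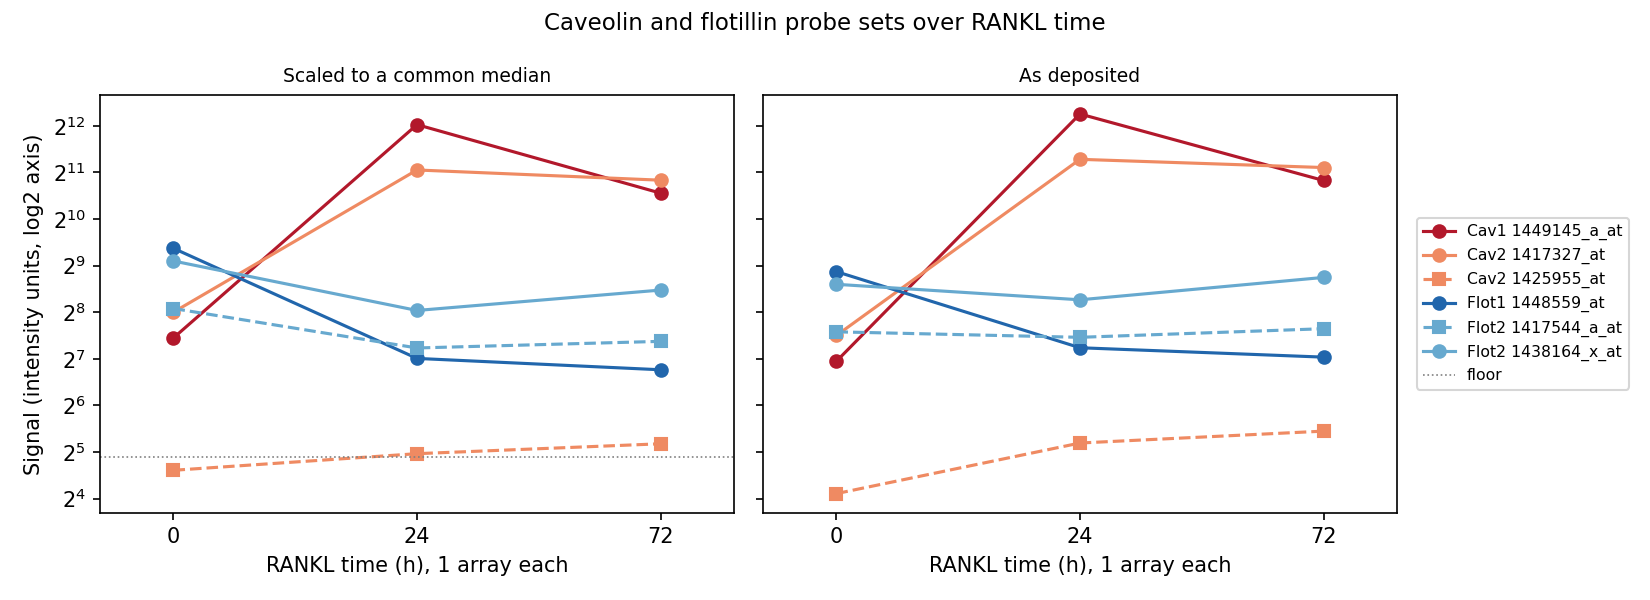
Signal (intensity units on a log2 axis) of the 6 caveolin and flotillin probe sets at 0, 24 and 72 h of RANKL, 1 array per point, scaled to a common array median on the left and as deposited on the right. Solid lines with circles are the probe sets that represent a gene, dashed lines with squares the others, and the dotted line is the floor of 29.6. Levels are to be compared along a line, not between probe sets. Cav1 peaks at 4171 scaled units at 24 h, and Flot2 is nearly level on the deposited scale.

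Cav1, the main coat protein of caveolae, had a scaled signal of 175 at 0 h, 4171 at 24 h and 1506 at 72 h on its single probe set. It was thus low before RANKL, highest after 1 day and in between after 3 days. Relative to 0 h it was 23.9-fold higher at 24 h (log2 difference 4.58) and 8.62-fold higher at 72 h (3.11). At 72 h it stood 2.77-fold below 24 h (log2 difference -1.47), a difference that holds the 24 h signal by which the genes were chosen and is given as a description. Of the 1112 genes called higher at 24 h, 333 (29.9%) were, like Cav1, called lower again between 24 and 72 h. The deposited Cav1 signals were 124 at 0 h, 4888 at 24 h and 1818 at 72 h, in the same order.

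Cav2, the partner of Cav1 in the caveolar coat, had 256 at 0 h, 2125 at 24 h and 1826 at 72 h on its brighter probe set. It was high at both later times, 8.29-fold above 0 h at 24 h (log2 difference 3.05) and 7.12-fold at 72 h (2.83). At 24 h it was the 21st highest of 8439 differences. Cav2 was within 2-fold of its 24 h signal at 72 h, with a factor of 1.16 (log2 difference -0.22). So were 725 (65.2%) of the 1112 genes called higher at 24 h. The Cav1 log2 difference minus that of Cav2 was -1.25 for 72 h minus 24 h, 1.53 for 24 h minus 0 h and 0.28 for 72 h minus 0 h, again as a description, since each holds a Cav1 signal that the choice used. The second Cav2 probe set was dim, with 24.4, 31.2 and 36.2 at 0, 24 and 72 h. It started under the floor and stayed near it, so it gave log2 differences of 0.08 and 0.29 against 0 h, and the Cav2 calls rest on the brighter probe set.

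Cav2 and Cav1 are direct neighbours among the protein-coding genes of chromosome 6, on the same strand, with 25.2 kb between the start of Cav2 and the first annotated start of Cav1. The promoters of the pair are shown because both genes were higher at 24 h. They are the 250 bases before the start from RefSeq (GRCm38.p6, plus strand), where 3 of the 4 members had an entry and Flot1 did not, and Cav1 has a second annotated start. Capitals mark matches on either strand to 4 motifs of factors known from osteoclasts. These are the NFAT core GGAAA, the AP-1 motif TGANTCA, the E-box CACGTG bound by MITF, and the PU.1 motif GAGGAAG.

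Cav2, chr6:17280935-17281184: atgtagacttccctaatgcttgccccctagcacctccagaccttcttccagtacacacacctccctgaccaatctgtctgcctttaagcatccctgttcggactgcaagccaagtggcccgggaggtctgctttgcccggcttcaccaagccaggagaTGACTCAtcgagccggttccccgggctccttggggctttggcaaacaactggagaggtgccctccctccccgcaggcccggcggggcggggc

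Cav1, first start, chr6:17306085-17306334: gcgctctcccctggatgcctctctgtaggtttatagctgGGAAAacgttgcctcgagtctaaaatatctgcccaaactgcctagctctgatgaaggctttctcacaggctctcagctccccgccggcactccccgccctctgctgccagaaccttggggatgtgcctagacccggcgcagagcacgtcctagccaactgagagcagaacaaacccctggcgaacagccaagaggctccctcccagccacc

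The Cav2 window held 1 AP-1 match, 92 to 86 bases before the start, a motif found in 6.75% of 32817 promoter windows of the same length. The first Cav1 window held 1 NFAT core match (211 to 207 bases before the start), found in 55.6% of windows. The second Cav1 window held 0 matches to the 4 motifs and is not shown. The E-box (6.02% of windows) and the PU.1 motif (10.6%) were in 0 of the 3 caveolin windows. The Flot2 window, of a gene that was not higher, held 2 NFAT core matches. The pair therefore shared no motif of the 4 in these windows. The motifs were chosen after the expression values were seen, and the PU.1 motif took the place of an NF-kB motif after the first search had been read. Matches to that NF-kB motif are not reported here. A match is only a run of letters and does not show binding.

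The genes beside the caveolin pair were read as well, taking the 3 nearest protein-coding genes on each side, a choice of place made after the caveolin values were seen. Of the 6 genes beside the caveolins 2 were higher and 0 lower at 24 h than at 0 h, where 13.2% of all measured genes were higher. These were Tes and Met, the genes next to Cav2 and to Cav1. Tes, which encodes the focal adhesion protein testin, had 94.6 at 0 h, 340 at 24 h and 286 at 72 h, so it was 3.60-fold and 3.02-fold above 0 h, and its other probe set had 77.3, 269 and 211. Met, the receptor of hepatocyte growth factor, was under the floor at 0 h and had 182 at 24 h and 249 at 72 h, at least 6.16-fold and at least 8.41-fold higher. Both kept within 2-fold between 24 and 72 h, as Cav2 did. Farther out, the actin-capping subunit Capza2 had 1662, 1871 and 1355, and the transcription factor Tfec 497, 572 and 691, all within 2-fold. At 72 h against 0 h 4 of the 6 were higher and 0 lower, where 12.5% of all measured genes were higher, with St7 at least 3.60-fold and Mdfic 2.02-fold higher beside Tes and Met.

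**Figure D2:**
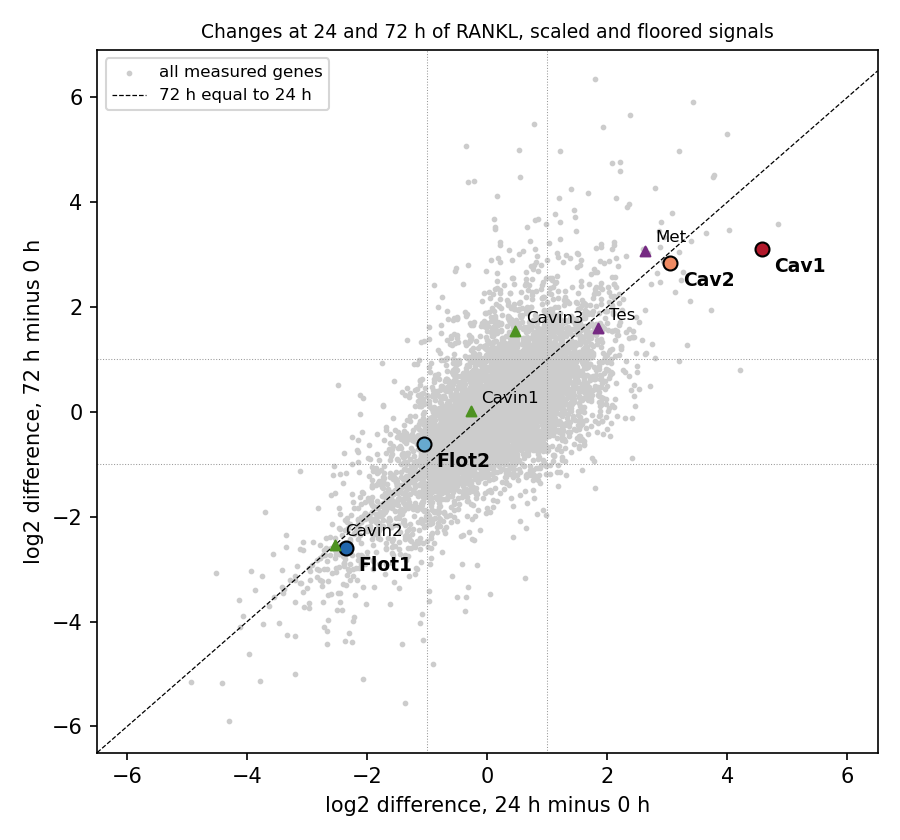
Log2 difference of 24 h minus 0 h (horizontal axis) against that of 72 h minus 0 h (vertical axis) for all measured genes in grey, with the caveolins and flotillins as large points, cavins as green and Tes and Met as purple triangles. Both axes share the 0 h array. Dotted lines mark 2-fold, and genes on the dashed line have the same signal at 24 and 72 h. Cav2 lies near that line, Cav1 below it by 1.47, and Flot1 lies on the low side of both axes at -2.36 and -2.61.

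Flot1, 1 of the pair of flotillins that assemble together in membranes, had scaled signals of 662 at 0 h, 129 at 24 h and 109 at 72 h on its single probe set. It was high only before RANKL, and low at both later times. It was 5.14-fold lower at 24 h than at 0 h (log2 difference -2.36) and 6.09-fold lower at 72 h (-2.61), with a factor of 1.18 between 24 and 72 h. The decrease did not depend on the scaling, since the deposited signals of 468 at 0 h, 151 at 24 h and 131 at 72 h gave 3.10-fold and 3.57-fold lower values. Of the 778 genes called lower at 24 h, 548 (70.4%) were, like Flot1, within 2-fold of that level at 72 h.

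Flot2, the partner of Flot1, had 549 at 0 h, 263 at 24 h and 356 at 72 h on its brighter probe set and 271, 150 and 166 on the other. Both probe sets were lowest at 24 h after scaling. The brighter one was 2.09-fold lower at 24 h than at 0 h (log2 difference -1.06), just past 2-fold, and the other 1.80-fold lower (-0.85), so the 24 h call rests on 1 of 2 probe sets, the one whose name ends in _x_at and whose probes may bind other transcripts. At 72 h against 0 h the brighter one was 1.54-fold and the other 1.63-fold lower, both within 2-fold. On the deposited scale the brighter probe set had 388, 308 and 430, so Flot2 differed by a factor of 1.26 at 24 h and 1.11 at 72 h, the last in the higher direction, and its sign at 72 h depends on the scaling. Flot1 lay below Flot2 by 1.30 on the log2 scale for 24 h minus 0 h and by 1.98 for 72 h minus 0 h, 2.24 and 2.85 times the technical SD of a difference between 2 genes. This gap between the flotillins does not depend on a scale factor shared by the array.

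**Figure D3:**
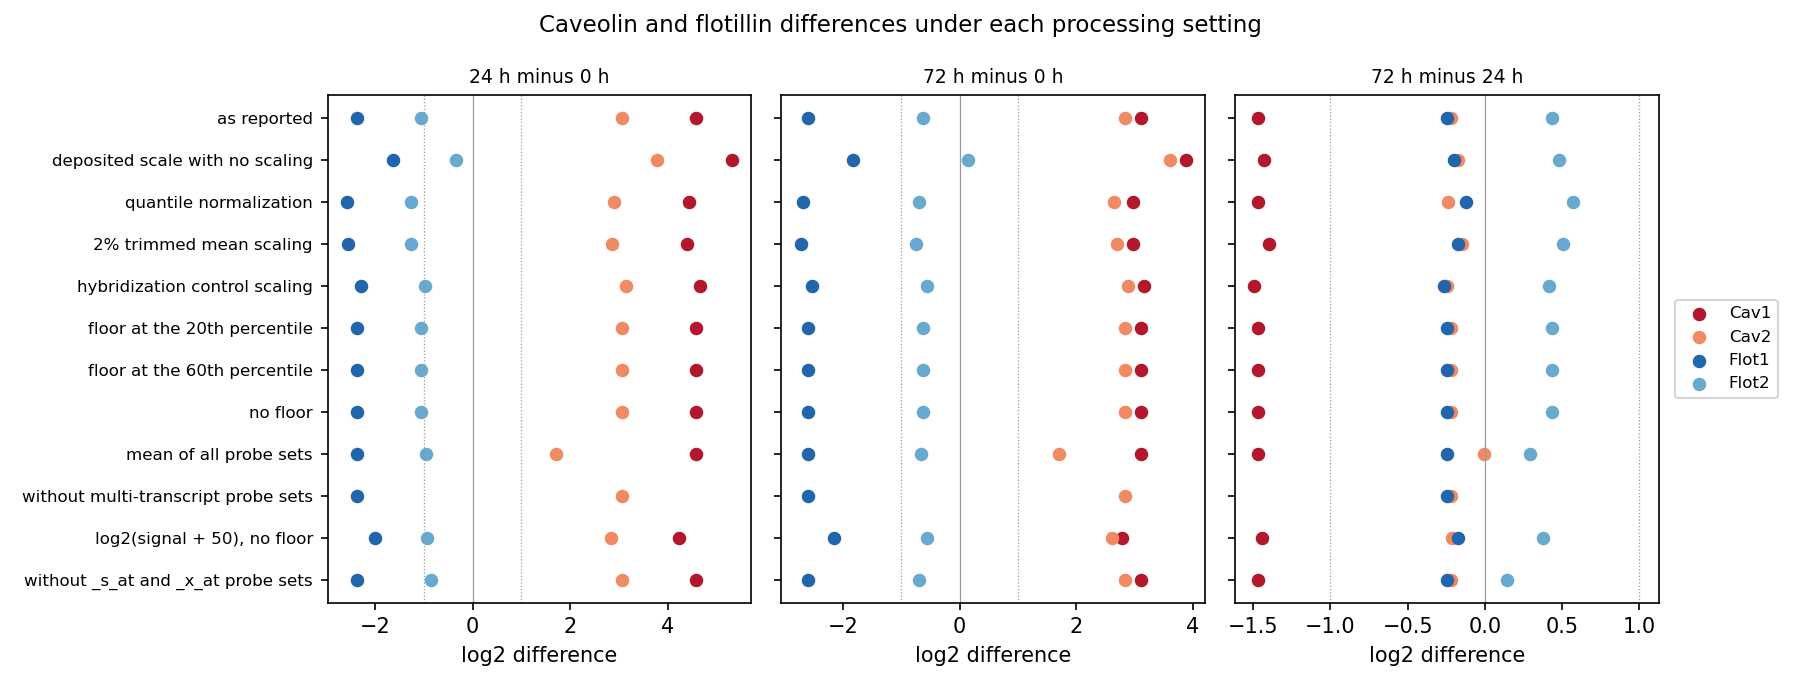
Log2 differences (horizontal axis) of Cav1, Cav2, Flot1 and Flot2 for the 3 comparisons under each processing setting (vertical axis). Dotted lines mark 2-fold. Points of Cav1 and Flot2 are missing where a setting removed their probe sets. Cav1 and Cav2 stay above and Flot1 below 0 at 24 and 72 h under the settings that could be run, while Flot2 at 72 h crosses 0 on the deposited scale, at 0.15.

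None of the measured cavins or other proteins of the caveolar coat was called higher at 24 h. Of 14 coat and accessory genes on the array, 8 were measured, of which 0 were higher and 3 lower at 24 h than at 0 h, where 13.2% of all measured genes were higher and 9.22% lower, so a count of 0 higher among 8 is near that share. The median log2 difference was -0.39 beside 0.12 over all measured genes, and on the deposited scale 1 of the list was higher at 24 h. Cavin1, which caveolae need to form, stayed close to the floor with 45.8, 38.0 and 46.3 at 0, 24 and 72 h on its brightest probe set, and its other probe sets were under the floor on all 3 arrays. Cavin2 had 171 at 0 h and was under the floor at 24 and 72 h, at least 5.80-fold lower, and its other probe set went the same way. Vwf, a product of endothelial cells and megakaryocytes, moved with it, with 332, 57.9 and 50.8 at 0, 24 and 72 h, and the part of such cells in the Cavin2 value was not tested. Cavin3 had 38.2, 52.9 and 111 and was 2.89-fold above 0 h at 72 h, and Cavin4 and the muscle caveolin Cav3 were under the floor on all 3 arrays. Among the EHD ATPases of the caveolar neck and of endosomes, Ehd2 had 41.8 at 0 h, was under the floor at 24 h and reached 111 at 72 h, 2.66-fold above 0 h, though its other probe sets were under the floor. Ehd4 had 1632, 458 and 737, 3.56-fold and 2.21-fold lower. At 72 h against 0 h the list had 2 of 8 genes higher and 2 lower (median -0.10 beside -0.01 over all measured genes). Between 24 and 72 h 2 of 7 were higher, Cavin3 and Ehd2, and 0 lower (median 0.62 beside -0.14), where 6.92% of all measured genes were higher. The higher counts of these 2 comparisons depend on the processing. In each of them 0 were higher with the floor at the 60th percentile, and 1 was with probe sets averaged.

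Of 4 relatives of flotillins that share the SPFH domain, 2 were higher and 1 lower at 24 h (median 0.97), and the same counts held at 72 h (median 0.53), too few genes to set against the shares over all. Phb2, a prohibitin of the mitochondrial inner membrane, had 626 at 0 h, 2646 at 24 h and 1427 at 72 h, 4.23-fold and 2.28-fold higher, but its other probe sets were within 2-fold at 72 h. Stoml2, a mitochondrial stomatin-like protein, had 144, 409 and 314, 2.84-fold and 2.18-fold higher. Stom, the stomatin of the plasma membrane and endosomes, had 588, 204 and 231 and was 2.88-fold and 2.54-fold lower. Of its 6 probe sets 2 stayed within 2-fold at 24 h, 3 did at 72 h, and 1 was under the floor on all 3 arrays. On the deposited scale 3 of the list were higher and 0 lower at 24 h, and 2 higher and 0 lower at 72 h. Both Stom calls were thus lost there, while those of Flot1 held. Erlin1, of the endoplasmic reticulum, had 446, 600 and 426 and was within 2-fold at both times.

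Of 10 measured raft adaptors and Src family kinases, 1 was higher and 2 lower at 24 h (median -0.03), near the shares over all measured genes (13.2% and 9.22%). At 72 h 4 were higher and 3 lower (median 0.20), beside shares of 12.5% and 12.8%. On the deposited scale 3 were higher and 0 lower at 24 h. Src, a kinase that phosphorylates Cav1 and that osteoclasts need for resorption, had 64.6 at 0 h, 281 at 24 h and 383 at 72 h, 4.35-fold and 5.92-fold higher. Pag1, the raft adaptor that recruits the Src inhibitor Csk, had 361, 132 and 73.8, 2.75-fold and 4.90-fold lower. The ubiquitin ligase Cbl had 436, 184 and 87.3, 2.38-fold and 5.00-fold lower, and its other probe set was near or under the floor. Rftn2, a raft protein of the raftlin family, was under the floor at 0 h, at 30.7 at 24 h and at 220 at 72 h, at least 7.44-fold higher. Of 13 measured genes of sphingolipid and ganglioside synthesis, which supply lipids of these domains, 2 were higher and 2 lower at 24 h (median -0.19), beside shares of 13.2% and 9.22%. At 72 h 2 of 14 were higher and 2 lower (median -0.36), beside 12.5% and 12.8%. The 24 h counts depend on the processing, with 5 higher and 0 lower on the deposited scale. After quantile normalization 1 was higher at 24 h, and after trimmed mean scaling 0 were. B4galnt1, a ganglioside synthase, was highest at 24 h, with 252, 518 and 111, but just past 2-fold above 0 h (2.05-fold). At 72 h it was 4.68-fold below 24 h and 2.28-fold below 0 h, whereas Cav1 stayed above 0 h. The other B4galnt1 probe set was under the floor on all 3 arrays. The lactosylceramide synthase B4galt6 had 415, 168 and 88.5 and was 4.69-fold lower at 72 h than at 0 h. Ugcg, the glucosylceramide synthase, was 2.27-fold lower at 24 h on its brightest probe set (122 at 0 h, 53.8 at 24 h and 64.0 at 72 h), though 1 of its 3 probe sets stayed within 2-fold. At 72 h against 0 h the brightest had a log2 difference of -0.93, and the others had 0.43 and 0.52. Sgms1, a sphingomyelin synthase, had 50.7, 113 and 110, 2.22-fold and 2.17-fold higher. Its other probe set had 39.3, 72.3 and 86.3 and stayed within 2-fold at 24 h.

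Clathrin and its adaptor AP-2 form the other main coat of endocytosis. Of 13 measured genes 0 were higher and 3 lower at 24 h (median -0.58), where 13.2% of all measured genes were higher and 9.22% lower (median 0.12). At 72 h 1 was higher and 4 were lower (median -0.63), where 12.5% and 12.8% of all were (median -0.01). The 24 h counts depend on the processing, with 1 higher and 0 lower on the deposited scale and 1 lower with probe sets averaged or without multi-transcript probe sets. The clathrin light chain Clta (3391, 2191 and 2186) and the heavy chain Cltc (2953, 1812 and 1621) stayed within 2-fold. The clathrin adaptor Dab2 had 2521 at 0 h, 1120 at 24 h and 454 at 72 h, 2.25-fold and 5.55-fold lower. Its dimmest probe set, with 191, 128 and 77.9, stayed within 2-fold at 24 h. Bin1, which bends membranes, had 1099, 363 and 238, 3.03-fold and 4.61-fold lower, and Eps15 had 1055, 597 and 285 and was 3.70-fold lower at 72 h. The exception was the epsin Epn2, with 27.5 (under the floor), 34.1 and 267, at least 9.02-fold higher at 72 h than at 0 h. On the deposited scale both medians were above 0, at 0.15 and 0.14. The 24 h median of the caveolar coat list was then 0.12, and those of the raft and sphingolipid lists were 0.48 and 0.54, so the sign of these 24 h medians depends on the scaling.

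**Figure D4:**
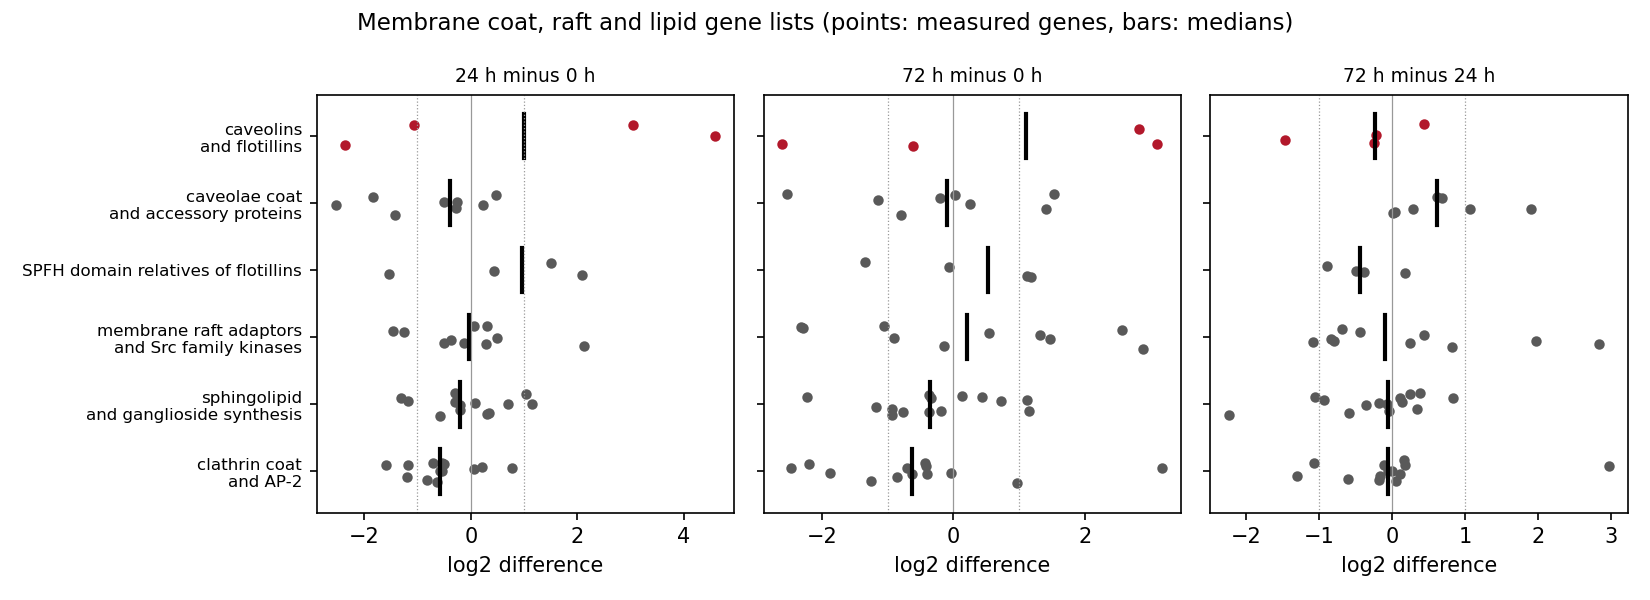
Log2 difference (horizontal axis) of each measured gene of the caveolins and flotillins (red) and of 5 related gene lists (grey) in the 3 comparisons, with a bar at each list's median and dotted lines at 2-fold. Points are spread vertically for sight only. At 24 h Cav1 and Cav2 lie to the right of every other point shown, at 4.58 and 3.05, and Flot1 at -2.36 is passed on the left by Cavin2 at -2.54.

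Since caveolins are abundant in several non-haematopoietic cells, markers of these were read beside Cav1 and Cav2. Of 10 measured stromal and osteoblast markers 0 were higher and 0 lower at 24 h than at 0 h. Over all measured genes 13.2% were higher and 9.22% lower, so counts of 0 among 10 are near these shares. The summed signal of the 13 stromal and osteoblast markers on the array was 3249 at 24 h against 3055 at 0 h. At 72 h that sum was 9673, with 4 of 12 measured markers higher, where 12.5% of all measured genes were higher and 12.8% lower. The 4 were led by the collagens Col1a1 (205, 380 and 1433 at 0, 24 and 72 h) and Col1a2 (913, 989 and 3469). The second Col1a1 probe set was within 2-fold of 0 h. Of the 12, 1 was lower at 72 h, the proteoglycan Dcn with 127, 69.7 and 45.7 at 0, 24 and 72 h (2.78-fold), and Lum had 42.9 at 0 h and was under the floor at 24 and 72 h. The 6 smooth muscle markers summed to 1284, 1176 and 5964. Of them 0 of 3 measured were higher at 24 h and 3 of 4 at 72 h, too few genes to set against the shares over all. At 72 h the actin-binding Tagln was 12.6-fold, the smooth muscle actin Acta2 3.65-fold and Cnn1 at least 6.86-fold higher. The Acta2 value rests on a probe set whose name ends in _s_at and whose probes may bind other transcripts. The other Acta2 probe set was under the floor on all 3 arrays. Myh11 was under the floor on all 3 arrays, as was the brighter Des probe set. The other Des probe set had 35.4 at 24 h and was otherwise under the floor. The part of such cells in the values of Cav1, Cav2, Cavin3 and Ehd2 was not tested. The 11 endothelial markers summed to 760, 369 and 323. Of 6 measured at 24 h and 7 at 72 h, 0 were higher and 2 lower at both times, beside the shares over all measured genes given above. Pecam1, Cdh5, Tek and Tie1 were under the floor on all 3 arrays. The adipocyte sum moved with Cav1, at 1096, 3832 and 2667, through the lipoprotein lipase Lpl, which macrophages also make (893, 3767 and 2583), while Adipoq, Cidec and Lep were under the floor on all 3 arrays and Fabp4 was lower (117, then under the floor, then 37.6).

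**Figure D5:**
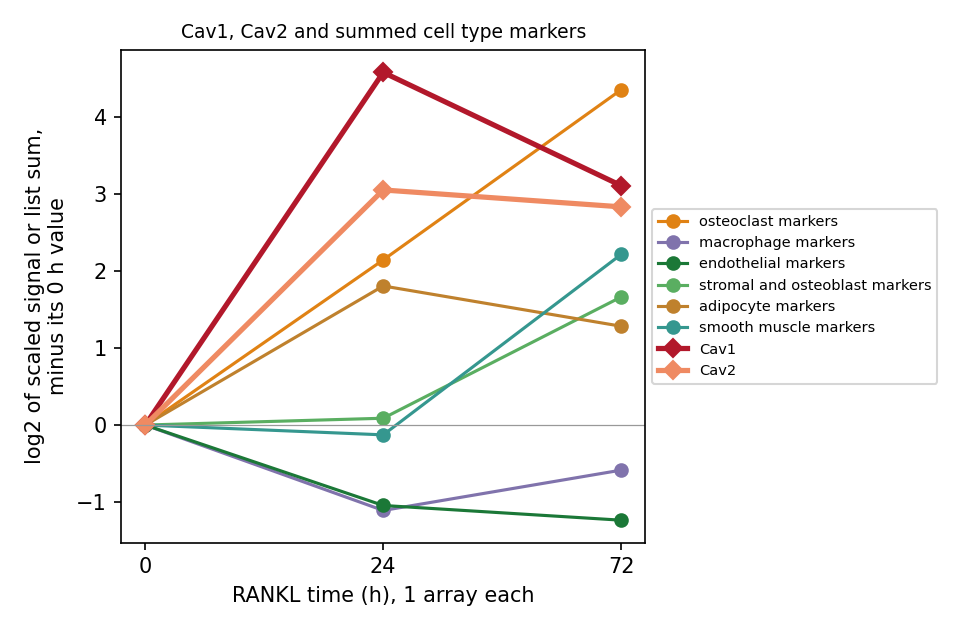
Log2 of the scaled signal of Cav1 and Cav2 (diamonds) and of the summed signal of each marker list (circles), minus the 0 h value, at 0, 24 and 72 h of RANKL, 1 array per point. At 24 h Cav1 is at 4.58 and the stromal and smooth muscle sums are at 0.09 and -0.13, and at 72 h those sums are at 1.66 and 2.22.

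The genes most like Cav1 were sought by the distance of the pair of log2 differences (24 h minus 0 h, 72 h minus 0 h) over the 3 arrays, among 7163 other genes above the floor on all of them. The nearest was Tufm, a mitochondrial elongation factor, at a distance of 0.66, but its 0 h signal of 29.7 lies just above the floor. Jdp2, an AP-1 family factor, followed at 0.99, then Srgap3 at 1.20, Rai14 at 1.38 and Ak1, an adenylate kinase, at 1.39, and Cav2 was the 7th at 1.55. These 5 genes differed by factors of only 1.10 to 1.50 between 24 and 72 h, against 2.77 for Cav1. Cav2 had nearer ones, with Mcrip2 at 0.09, Idh3a, a subunit of mitochondrial isocitrate dehydrogenase (316, 2391 and 2328), at 0.14, and Ak1 (239, 2279 and 1522) at 0.26. With 3 arrays such likeness is a description only.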

How the data were processed

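Transcripts of 3 cultures were measured on 1 Affymetrix array each. As deposited, each array has 1 linear intensity signal for every probe set. MAS5 made them, per the submitters' processing notes. Its version and a genome build are not given in the sources used here. Of 22690 probe sets 64 were controls, 20380 had a single gene symbol in the platform annotation of 2016, 691 had several and 1555 had none. Of those with a single symbol 20351 matched a RefSeq gene by identifier (GRCm38.p6, used for names, neighbours and promoters). Log2 values of each array were centred on the median of its gene probe sets and returned to the mean of the 3 medians. The floor was the 40th percentile of all scaled gene probe sets. The single-symbol probe set of highest mean log2 value stood for a gene, which was measured where 1 or both arrays exceeded the floor; a fold against the floor is written "at least". Precision is limited by the number of arrays. The technical SD came from 2727, 2702 and 2785 genes with 2 probe sets above the floor (24 h against 0 h, 72 h against 0 h, 72 h against 24 h), as the SD of the difference between them over the square root of 2, and leaves out variation between cultures. The members, gene lists and alternatives were chosen with earlier results of these data known. Named genes are the members with every probe set, up to 4 called genes per list by their largest difference, the cavins and the genes nearest to Cav1 (5) and Cav2 (3); other genes in the text were named for contrast, or as neighbours, after their values were seen. The functions were checked on simulated data. Python 3.11.15, numpy 2.4.6 and pandas 2.3.3 were used.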

Additional observations from a re-analysis of the deposited data

How the results depend on the processing

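With 1 array per time there is no error between cultures, so the settings show only how the processing bears on the values. Cav1 and Cav2 were called higher and Flot1 lower against 0 h at both times, and Cav1 lower at 72 h than at 24 h, under each setting that gave a value. Without multi-transcript probe sets Cav1 and Flot2 had none. Leaving out only _s_at and _x_at ones, an alternative chosen after seeing the data, gave Flot2 -0.85 at 24 h, and its 24 h call was also lost with hybridization control scaling (-0.98), probe sets averaged (-0.95) and log2(signal + 50) (-0.94). Unless another cause is plain from the setting, the cause was not tested. The deposited scale keeps the shift between arrays. On it the log2 differences for 24 h minus 0 h were 5.31 for Cav1, 3.78 for Cav2, -1.63 for Flot1 and -0.33 for Flot2. For 72 h minus 0 h they were 3.88, 3.60, -1.83 and 0.15 in that order. With probe sets averaged, which brings in the dim one, Cav2 had 1.70 for both 24 h minus 0 h and 72 h minus 0 h. The counts over all measured genes moved more. On the deposited scale 3302 were higher and 314 lower at 24 h, and 2985 higher and 455 lower at 72 h, so that 91.3% and 86.8% of calls were higher, where the median scaling gave 58.8% and 49.4%. At 24 h that share was 46.9% after quantile normalization and 42.2% after trimmed mean scaling. Taking the 20th percentile as the floor, 1307 were lower at 24 h (778 as reported), 1659 lower at 72 h (1095), and 981 higher (581) and 1267 lower (839) for 72 h against 24 h. At the 60th percentile 712 were lower for 72 h against 0 h, and for 72 h against 24 h 364 were higher. With log2(signal + 50) 705 were higher at 24 h (1112), 723 lower at 72 h, and 357 higher and 455 lower for 72 h against 24 h. Of 495 values of the related gene lists under these settings, 75 moved by more than the technical SD or, for counts, by over 1.5 times. No paired analysis was possible because each time has 1 array.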
